A study of Glycine max with 30 samples.

Results

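In soybean leaves, 116 of the 55589 counted genes (0.209%) gave reads in cultivar Jack and almost none in cultivar Mustang. They were chosen by CPM, the usual unit in which a gene's count is divided by the total count of its library, so that libraries of different depth can be compared. A gene was taken when its mean over the 6 Jack libraries was at least 2 CPM and its mean in each of the 4 Mustang groups was at most 0.2 CPM. They made up 0.440% of the 26380 genes that reached 2 CPM in Jack. Because these values chose the genes, the difference in level between the cultivars is given below as a description and without a test. The converse rule, at least 2 CPM in each Mustang group and at most 0.2 CPM in both Jack groups, held for 64 genes.

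Poly(A) RNA of mature leaves was sequenced in 30 libraries. The Jack plants came from a family carrying an RNAi construct against NRPD1, with 3 transgenic siblings (T) and 3 siblings without the transgene (NT). The Mustang plants came from a NRP(D/E)2-RNAi family and a NRPE1-RNAi family, each with 6 T and 6 NT siblings. Cultivar, family, construct and any growth or sequencing batch fell together between Jack and Mustang and cannot be told apart, and the labels gave no age, no number of transformation events and no promoter for the constructs. The 30 libraries held 10049997 to 21763621 counts, and the 6 Jack libraries 12204408 to 13743064.

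NRPD1 and NRPE1 are the largest subunits of the plant RNA polymerases IV and V, and NRP(D/E)2 is a subunit common to both. In Arabidopsis polymerase IV makes the precursors of small RNAs and polymerase V makes the transcripts those small RNAs pair with, which brings DNA methylation to transposons and to some genes. Crop cultivars are known to differ in which genes they carry, in the sequence of shared genes and in the silencing of individual gene copies. Each of these can leave a gene without counted reads, and gene counts alone do not separate them; in whole leaves, fewer cells of a type and less RNA per cell cannot be told apart either.

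The genes are given by their Glyma identifiers, because none of the 55589 (matched: 0) occurred among the 59048 genes of the RefSeq table for soybean. Roles of the genes, leaf markers and the transcripts of the targeted subunits were therefore not analysed here. The identifiers number the genes along each chromosome, and a position is given as the rank of an identifier on its chromosome. The Jack libraries that stood apart for these genes were T replicate 3 and NT replicate 2, with low values, and NT replicate 3, with high values. In Mustang it was NRPE1-RNAi T replicate 1. The main results that rest on these libraries are given with and without them.

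Most of the 116 genes were expressed at a low level in Jack. Their Jack means ran from 2.03 to 187 CPM with a median of 3.75 CPM; 66 genes lay under 5 CPM, 97 under 10 CPM and 13 at 20 CPM or more. Near the edge of the rule, Glyma.17G106900 and Glyma.13G043100 entered at 2.06 and 2.03 CPM in Jack, and Glyma.16G206200 and Glyma.19G101500 fell just outside at 1.98 and 1.97 CPM. At the Mustang ceiling, Glyma.12G227700 and Glyma.18G225100 entered with a highest group mean of 0.199 and 0.198 CPM, and Glyma.03G181300 and Glyma.14G220600 were left out at 0.205 CPM each. The list therefore has no gap at either edge.

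**Figure D1:**
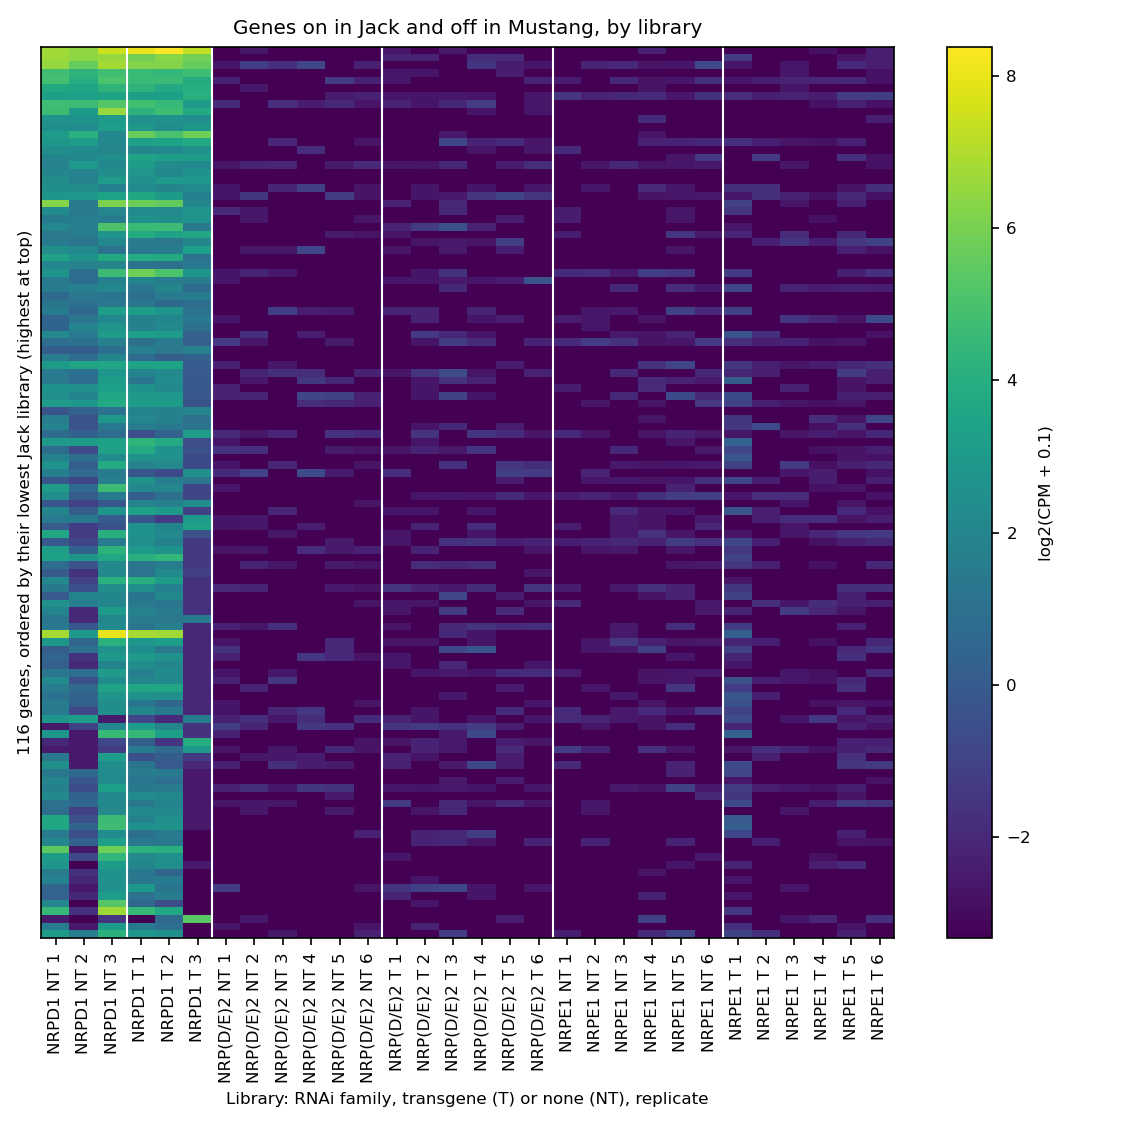
Level of each of the 116 genes (rows, ordered by their lowest Jack library) in each of the 30 libraries (columns) as log2(CPM + 0.1), with white lines between the 6 groups of plants. The 6 Jack columns are bright at the top and, further down, T replicate 3 and NT replicate 2 turn as dark as the Mustang columns, among which NRPE1-RNAi T replicate 1 is the brightest.

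The gene with the highest Jack mean was Glyma.02G028100, on chromosome 2. It measured 108, 87.7 and 172 CPM in NT replicates 1 to 3 and 259, 332 and 160 CPM in T replicates 1 to 3, a mean of 187 ± 93.0 CPM (SD, n = 6). The 24 Mustang libraries together held 8 counts of it among 370677610, so that its Jack mean was 9644 times its Mustang mean. No Jack library came near the Mustang level of this gene.

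Glyma.18G103500 and Glyma.04G105900 were similarly even across Jack. Glyma.18G103500 measured 102, 84.8 and 96.0 CPM in NT and 57.8, 78.4 and 61.1 CPM in T replicates 1 to 3, with 17 counts in all Mustang libraries. Glyma.04G105900 measured 92.7, 48.2 and 110 CPM in NT and 72.7, 74.6 and 49.4 CPM in T, with 42 Mustang counts. Both stayed within a narrow range over the 6 Jack libraries, as did less abundant genes such as Glyma.02G205100 at 19.3 to 28.0 CPM and Glyma.16G092900 at 11.4 to 19.6 CPM, the latter pair chosen after their values were seen.

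Other abundant genes of the list were not evenly on in Jack. Glyma.03G252700, with the second highest mean (98.8 ± 93.1 CPM, SD, n = 6), measured 112, 7.90 and 257 CPM in NT and 113, 103 and 0.146 CPM in T replicates 1 to 3. Its value in T replicate 3 lay within its Mustang range, which reached 1.11 CPM. Glyma.08G287500 measured 77.1, 2.84 and 66.8 CPM in NT and 53.3, 46.5 and 3.86 CPM in T, again lowest in NT replicate 2 and T replicate 3. Glyma.14G052000 measured 25.6, 8.44 and 96.1 CPM in NT and 18.9, 27.0 and 14.0 CPM in T, and had 2 counts in all of Mustang. NT replicate 3 was its highest library and NT replicate 2 its lowest.

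The label "on in Jack" held in every Jack library for a minority of the genes. In 27 of 116 (23.3%) all 6 Jack libraries reached 2 CPM, against 85.2% of all genes with a Jack mean of at least 2 CPM. In 43 of 116 (37.1%) at least 1 Jack library lay at or under the Mustang ceiling of 0.2 CPM, against 1.01% of all such genes, and the remaining 46 lay in between. The same held among genes of low level. Among genes with a Jack mean of 2 to 10 CPM, 39 of the 97 listed (40.2%) and 1.98% of all 11818 had such a library, and 15 of the 97 (15.5%) and 68.2% of all reached 2 CPM throughout. The 27 genes at 2 CPM or more throughout had a median Jack mean of 8.22 CPM, against 3.10 CPM for the 43. The definition of these classes by the same Jack values favours this difference.

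The low values were concentrated in 2 of the 6 plants, 1 transgenic and 1 not. Of the 116 genes, 34 lay at 0.2 CPM or less in T replicate 3 and 16 in NT replicate 2, against 4 in NT replicate 1 and 1 each in NT replicate 3, T replicate 1 and T replicate 2. Among all genes with a Jack mean of at least 2 CPM, 0.273% were as low in T replicate 3 and 0.5004% in NT replicate 2. For 25 genes it was T replicate 3 without NT replicate 2, for 7 NT replicate 2 without T replicate 3, for 9 both, and for 2 another library. These 2 plants were the 2 lowest of the 6 in 64 of the 116 genes and in 11.4% of all genes at that level.

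The same 2 plants had the lowest sums over the list. The 116 genes summed to 1105, 559 and 1915 CPM in NT replicates 1 to 3 and to 1382, 1336 and 703 CPM in T replicates 1 to 3. The median gene stood at 3.77, 1.57 and 6.46 CPM in NT and at 4.83, 4.38 and 0.873 CPM in T. T replicate 3 was low for the list but not for expressed genes in general, whose median was 14.1 CPM there and 9.44 to 11.7 CPM in the other 5. It was the lowest library for 60 of the 116 genes, against 16.1% of all genes at that level. It was the highest for 18 (15.5%), against 48.2% of all. NT replicate 2 was the lowest for 33 of the 116, against 32.2% of all, and its median over expressed genes, 9.44 CPM, was the lowest of the 6. NT replicate 3 was the highest library for 61 of the 116, against 22.1% of all. These CPM are scaled by total counts. Scaling by the trimmed mean of M values (TMM) would multiply them by 1.06 in T replicate 3 and 1.53 in NT replicate 2. The factor was 1.29 to 1.46 in the other Jack libraries. Differences between libraries over expressed genes in general thus rest in part on the scaling. Without NT replicate 3 the list had 99 genes, with 20 of the 116 lost and 3 gained.

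Without T replicate 3 the list kept 108 of its 116 genes and gained 16, for 124 in all. The number of low genes moved more, as 18 in place of 43 then had a Jack library at 0.2 CPM or less. Without NT replicate 2 that number was 39. What set these 2 plants apart was not tested.

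**Figure D2:**
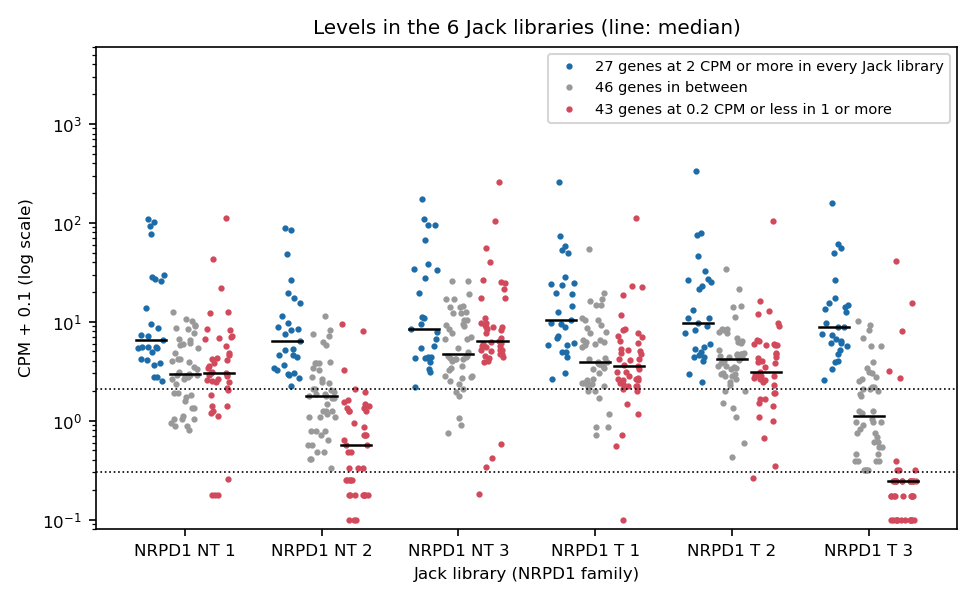
Each point is 1 of the 116 genes in 1 Jack library as CPM + 0.1 on a log axis, in 3 classes (27 genes at 2 CPM or more in every Jack library, 46 in between, 43 at 0.2 CPM or less in at least 1), with bars at the class median and dotted lines at the 2 limits of the rule. The 27 genes lie above the upper line in all 6 libraries by their definition, and the median of the 43 lies under the lower line in T replicate 3 and close to it in NT replicate 2.

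The widest range within Jack belonged to Glyma.14G064600, Glyma.03G252700, Glyma.06G291700 and Glyma.16G212400. Glyma.14G064600 measured 21.7, 0.230 and 105 CPM in NT and 22.8, 12.6 and 0 CPM in T replicates 1 to 3. Glyma.06G291700 measured 42.8, 0.0767 and 55.4 CPM in NT and 18.5, 16.2 and 0 CPM in T. Both were high in 4 plants and at or near 0 in T replicate 3 and NT replicate 2. Glyma.16G212400 had the opposite profile, at 41.4 CPM in T replicate 3 and 0 to 1.56 CPM in the other 5, so that 1 plant alone brought it into the list.

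In Mustang, 12 genes of the list had no count in any of the 24 libraries. They were Glyma.02G048600, Glyma.02G197100, Glyma.03G041400, Glyma.06G291700, Glyma.11G215000, Glyma.13G043100, Glyma.14G169000, Glyma.16G086600, Glyma.18G060700, Glyma.18G082800, Glyma.18G088500 and Glyma.19G027000, with Jack means of 2.03 to 22.2 CPM. Counts of 0 allow up to 3 counts over the 24 libraries, or 0.00809 CPM, a limit that covers counting error only. Against it their Jack means were at least 251-fold higher for Glyma.13G043100 and at least 2741-fold higher for Glyma.06G291700. Of the 12, Glyma.02G197100, Glyma.03G041400 and Glyma.16G086600 were also at 2 CPM or more in every Jack library: Glyma.02G197100 measured 5.36, 3.30 and 8.43 CPM in NT and 5.75, 7.62 and 7.49 CPM in T, and Glyma.16G086600 measured 3.96, 3.53 and 5.38 CPM in NT and 6.82, 4.34 and 6.04 CPM in T. Their 6 Jack values stood well apart from 0 in each case.

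A further 11 genes had 1 to 3 counts over the 24 Mustang libraries and 93 had more. In those 93 the ratio of the Jack mean to the Mustang mean ran from 18.7, in Glyma.14G181800, to 9644, with a median of 88.8. No Mustang library exceeded 1.18 CPM for any of the 116; 23 genes had a Mustang library at 0.5 CPM or more and 4 at 1 CPM or more.

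The Mustang reads of the list were not spread evenly over the plants. The 116 genes summed to between 2.51 and 5.01 CPM (median 3.90) in NRP(D/E)2-RNAi NT, 3.80 and 9.13 (4.88) in NRP(D/E)2-RNAi T, 2.49 and 7.02 (4.10) in NRPE1-RNAi NT, and 3.26 and 26.0 (5.58) in NRPE1-RNAi T. The value of 26.0 CPM belonged to replicate 1 of NRPE1-RNAi T, whose siblings with the transgene did not exceed 7.33 CPM. Apart from that library, the 4 groups overlapped. It was the highest Mustang library for 40 of the 104 genes with any Mustang count, and it held counts of 70 of the 116 genes, against 21 to 60 in the other 23.

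The excess in that plant lay in the genes that missed 2 CPM in some Jack library. These 89 genes summed to 24 CPM there and to 1.67 to 6.98 CPM in the other Mustang libraries, whereas the 27 genes at 2 CPM or more throughout summed to 1.97 CPM there and to 0.383 to 2.15 CPM elsewhere. Glyma.01G095500 and Glyma.12G063900, the genes with the highest single Mustang values, stood at 1.18 CPM each in NRPE1-RNAi T replicate 1 and at 0 in the other 5 plants of that group. In Jack, Glyma.01G095500 measured 6.91, 0.0767 and 24.5 CPM in NT and 22.4, 9.50 and 0.218 CPM in T, and Glyma.12G063900 measured 7.61, 8.13 and 10.2 CPM in NT and 19.2, 14.2 and 0.582 CPM in T. Both were low in Jack T replicate 3. Chosen without NRPE1-RNAi T replicate 1, the list had 168 genes, 115 of the 116 and 53 more; of the 168, 31 were at 2 CPM or more in every Jack library and 50 at 0.2 CPM or less in at least 1.

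**Figure D3:**
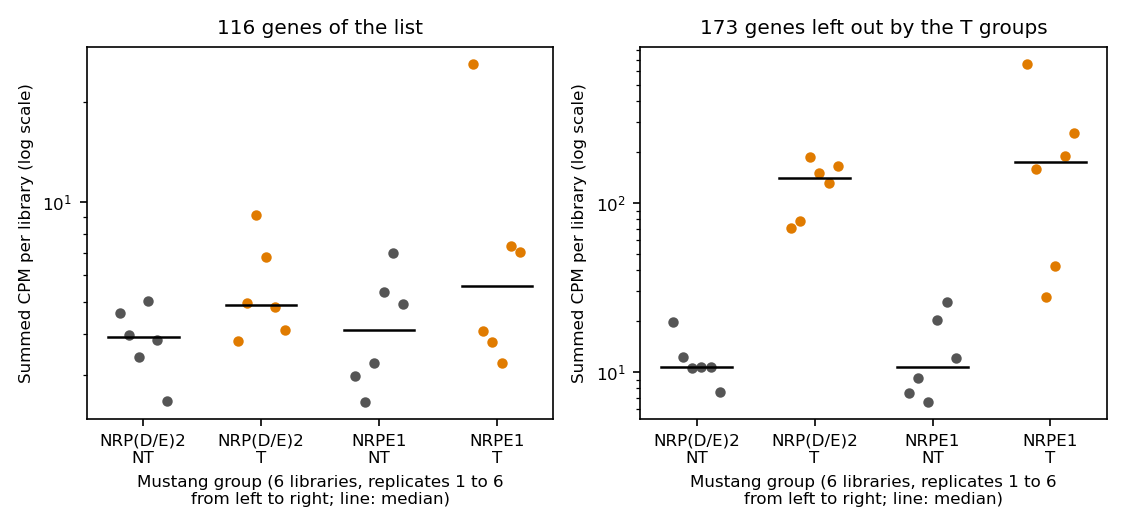
Summed CPM per Mustang library, on log axes, of the 116 genes (left) and of the 173 genes that were off in both Mustang NT groups but over the ceiling in a Mustang T group (right); each point is 1 of the 6 libraries of a group, in replicate order, and the bar is the median. On the left the groups overlap but for NRPE1-RNAi T replicate 1 at 26.0 CPM; on the right every T library lies above every NT library, as the choice of these genes favours.

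Many genes were off in Mustang NT siblings but not in Mustang siblings with a construct. By the NT siblings alone, 289 genes with a Jack mean of at least 2 CPM were at or under 0.2 CPM in both Mustang NT groups. Of these, 173 passed 0.2 CPM in a Mustang T group, 84 in both T groups, 19 in that of NRP(D/E)2-RNAi only and 70 in that of NRPE1-RNAi only. In 46 of the 173 a T group mean reached 1 CPM. Without NRPE1-RNAi T replicate 1, 120 of the 173 stayed over the ceiling, 49 in both T groups, 54 in that of NRP(D/E)2-RNAi only and 17 in that of NRPE1-RNAi only. Of the 289, 121 were then removed and 168 kept, against 173 and 116 with it, so that this 1 plant decided whether more genes were removed than kept. The T values chose these genes, so their rise over the NT siblings is a description.

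The left-out genes also varied within Jack. Over the 173, the sums ran from 7.63 to 19.8 CPM in NRP(D/E)2-RNAi NT (median 10.7) and 70.7 to 187 CPM in its T siblings (median 140), and from 6.60 to 26.0 CPM in NRPE1-RNAi NT (median 10.7) and 27.7 to 663 CPM in its T siblings (median 174). Again NRPE1-RNAi T replicate 1 was the highest, with the next at 259 CPM, and it was the highest Mustang library for 120 of the 173. In Jack, 35 of the 173 (20.2%) were at 2 CPM or more in every library, against 23.3% of the list, and 21 (12.1%) were at 0.2 CPM or less in at least 1, against 37.1% of the list. No test was made of these differences.

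The 3 left-out genes with the highest T group means are described by name. Glyma.11G236100 was at 0.196 ± 0.125 CPM in NRP(D/E)2-RNAi NT and 56.5 ± 45.4 CPM in T, and at 0.182 ± 0.261 CPM in NRPE1-RNAi NT and 35.3 ± 30.4 CPM in T (SD, n = 6 each). In Jack it measured 7.30, 2.22 and 23.4 CPM in NT and 199, 200 and 18.2 CPM in T replicates 1 to 3. The Jack T and NT values of this gene overlapped, through T replicate 3 and NT replicate 3.

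Glyma.10G061100 and Glyma.10G061200, which are adjacent on chromosome 10, reached the list's Jack level through the Jack plants with the construct. Glyma.10G061100 measured 0.0777, 0.614 and 0.160 CPM in Jack NT and 10.2, 7.37 and 13.1 CPM in Jack T, with means of 2.24 ± 1.97 CPM in NRP(D/E)2-RNAi T and 24.2 ± 27.9 CPM in NRPE1-RNAi T (SD, n = 6 each). Glyma.10G061200 measured 0.233, 0.384 and 0 CPM in Jack NT and 7.43, 6.39 and 9.10 CPM in Jack T, with means of 2.66 ± 2.21 and 23.5 ± 21.4 CPM in the Mustang T groups. For this pair the T and NT values of Jack did not overlap, and all Mustang NT libraries lay under 0.2 CPM.

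A choice by NT libraries alone allowed the T libraries to be read apart from the rule. With at least 2 CPM in Jack NT and at most 0.2 CPM in both Mustang NT groups, 286 genes were found, of which 103 were on the list. In the Jack T siblings, which this choice did not use, 224 of the 286 had a mean of at least 2 CPM and 1 had a mean of 0.2 CPM or less; the median was 4.40 CPM in Jack NT and 3.82 CPM in Jack T. In the Mustang T siblings 194 were at or under 0.2 CPM with the NRP(D/E)2-RNAi construct and 131 with the NRPE1-RNAi construct. Most of these genes thus stayed low in the NRP(D/E)2-RNAi T siblings. For NRPE1-RNAi the number rested on replicate 1, without which 222 of the 286 were at or under 0.2 CPM. That plant was left out after its values were seen. The T plants are siblings of the NT plants used for the choice, so this is no second observation of a cultivar difference.

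Within Jack, the list was compared between T and NT siblings. The rule pooled these 6 libraries, so it did not use the contrast directly, but 13 genes had an NT mean under 2 CPM and entered through T, and 21 had a T mean under 2 CPM and entered through NT. The 82 others reached 2 CPM in both groups. The counts below are therefore a description and support no difference. No gene of the list was called by edgeR's quasi-likelihood test at an adjusted p under 0.05 (Benjamini-Hochberg over 30539 tested genes, of which 5, or 0.0164%, were called, all higher in T). Of the list, 114 genes were tested, and Glyma.02G028200 and Glyma.16G212400 were removed by the filter on low counts. At an unadjusted p under 0.05, 10 were higher and 3 lower in T, against 6.23% and 1.59% of all tested genes. The median log2 fold change of T over NT was −0.16 for the list and 0.01 for all tested genes, and 49 of the 114 had a positive value. The alternative tool DESeq2 called 5 genes of the list, all higher in T, among 554 called in all (1.82%).

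The T and NT values did not overlap in 15 of the 114. In 10 (8.77%) all 3 T values lay above all 3 NT values, against 7.90% of all tested genes, and in 5 (4.39%) they lay below, against 4.12%. With all 6 libraries these shares were near the background in both directions, but this depended on single libraries. Without NT replicate 2, 33 of the 114 lay lower, against 10.5% of all tested genes, and 11 higher, against 9.10%. Without T replicate 3, 22 of the 114 lay higher, against 11.8% of all, and 7 lower, against 15.4%. Without NT replicate 3, 18 of the 114 lay higher, against 18.9% of all. Without T replicate 1, 8 of the 114 lay lower, against 6.39% of all. An exact two-sided permutation test of 3 against 3 cannot go below 0.1, so that test could not pass for any single gene.

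The 15 genes are named because their values did not overlap, after these were seen. Of the 10 higher in T, 5 had entered the list through T, and their differences are given without a test. Glyma.09G278700 measured 0.777, 0.384 and 0.802 CPM in NT and 3.83, 3.36 and 5.53 CPM in T, a log2 fold change of 2.63 ± 0.34 (SE). Glyma.07G200000 measured 0.932, 0.307 and 0.642 CPM in NT and 5.75, 3.77 and 10.2 CPM in T (3.29 ± 0.47). Glyma.13G176000 measured 0.0777, 0.0767 and 0.321 CPM in NT and 2.76, 1.56 and 7.93 CPM in T (4.50 ± 0.78). The NT values of all 3 genes lay under 1 CPM, so that the T siblings alone carried them over the limit of the list.

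Glyma.02G197700 and Glyma.14G096800 had higher levels in both groups. Glyma.02G197700 measured 8.47, 17.1 and 4.25 CPM in NT and 50.0, 32.8 and 55.9 CPM in T (log2 fold change 2.09 ± 0.55, SE; edgeR adjusted p = 0.332), and Glyma.14G096800 measured 2.41, 2.61 and 6.58 CPM in NT and 14.5, 10.9 and 12.4 CPM in T (1.69 ± 0.39; edgeR adjusted p = 0.252). DESeq2 called both, with an adjusted p of 0.0171 for Glyma.02G197700 and 0.0140 for Glyma.14G096800, while edgeR called neither. The other 3 genes it called were the 3 described before, which had entered through the T values. An edgeR model of all 30 libraries called Glyma.07G200000 and Glyma.13G176000, both of them among those 3, and no other gene of the list, among 208 genes in all (0.575%).

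A further 3 genes, between ranks 825 and 885 of chromosome 18, were higher in all T plants than in all NT plants. Glyma.18G082500, at rank 825 of 3023, measured 2.64, 2.91 and 2.97 CPM in NT and 5.67, 5.41 and 6.33 CPM in T (log2 fold change 0.97 ± 0.23, SE; edgeR adjusted p = 0.265). Glyma.18G082800, at rank 828, measured 0.699, 1.15 and 2.01 CPM in NT and 3.60, 3.28 and 3.86 CPM in T (1.43 ± 0.40). Glyma.18G088500, at rank 885, measured 1.01, 0.997 and 1.85 CPM in NT and 3.22, 2.38 and 3.27 CPM in T (1.16 ± 0.34). The last 2 had no Mustang count and had entered through T, with NT means under 2 CPM, and none of the 3 was called by either tool. Glyma.09G248200 and Glyma.14G041600 completed the 10, with log2 fold changes of 1.02 ± 0.25 and 0.64 ± 0.33 (SE).

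On the lower side, Glyma.19G027000 measured 4.12, 3.68 and 3.93 CPM in NT and 2.07, 1.88 and 2.55 CPM in T (log2 fold change −0.91 ± 0.24, SE; edgeR adjusted p = 0.339). Glyma.14G169000 followed with −1.20 ± 0.40, Glyma.17G060100 with −1.37 ± 0.77, Glyma.18G103500 with −0.56 ± 0.22 and Glyma.14G034100 with −0.27 ± 0.21. The T means of Glyma.14G169000 and Glyma.17G060100 were under 2 CPM, so that these had entered through NT.

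**Figure D4:**
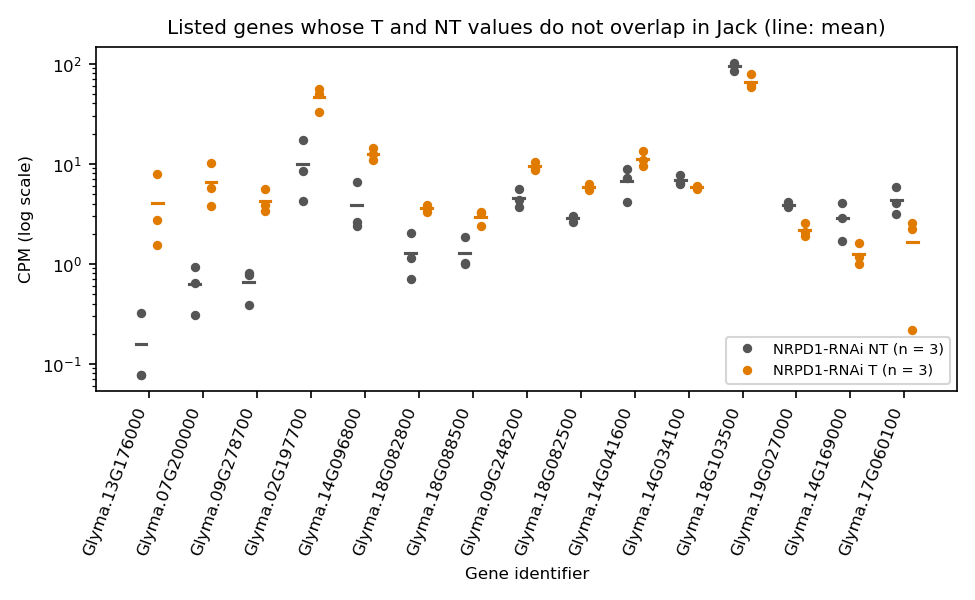
CPM on a log axis of the 15 genes whose T (orange) and NT (grey) values did not overlap in Jack, with 1 point per plant (n = 3 each) and a bar at the mean. The 10 genes on the left were higher in T and the 5 on the right lower; none passed edgeR's adjusted p of 0.05, and the shift is widest in Glyma.13G176000, from under 0.4 CPM to 1.56 CPM or more.

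The genes of the list lay on all 20 chromosomes, with unequal shares. Chromosome 14 held 14 of them, 1.37% of its 1023 genes with a Jack mean of at least 2 CPM, against 0.440% over the genome. Chromosome 13 held 15 (0.811%), chromosome 18 held 12 (0.919%), chromosome 2 held 10 (0.662%) and chromosome 16 held 7 (0.732%), while chromosomes 5 and 20 held 1 each. When each chromosome was cut by rank into 5 equal stretches, the middle stretch held 13 of 116 (11.2%) and 18.6% of all genes at that Jack level, and the others held 27, 24, 29 and 23 from first to last. No test was made of these shares, which describe single genes that may share a stretch of chromosome.

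No run of adjacent listed genes was longer than a pair, but some windows held several. A window of 200 consecutive identifiers held at most 4. Chromosome 2 (ranks 254 to 315), chromosome 14 (4 overlapping windows between ranks 341 and 723) and chromosome 18 (ranks 825 to 943) reached this. These 4 lay among 102 genes with a Jack mean of at least 2 CPM on chromosome 2. On chromosome 14 they lay among 89 to 117 such genes, and on chromosome 18 among 64. The share over the genome was 0.440%. The windows were picked as the densest, and no test was made of them. In the converse list of 64 genes a window also reached 4. The window on chromosome 18 holds the 3 genes that were higher in T and Glyma.18G094300, whose mean was lower in T. Glyma.18G094300 had a mean of 2.97 CPM in T and 12.2 CPM in NT, and its T and NT values overlapped.

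**Figure D5:**
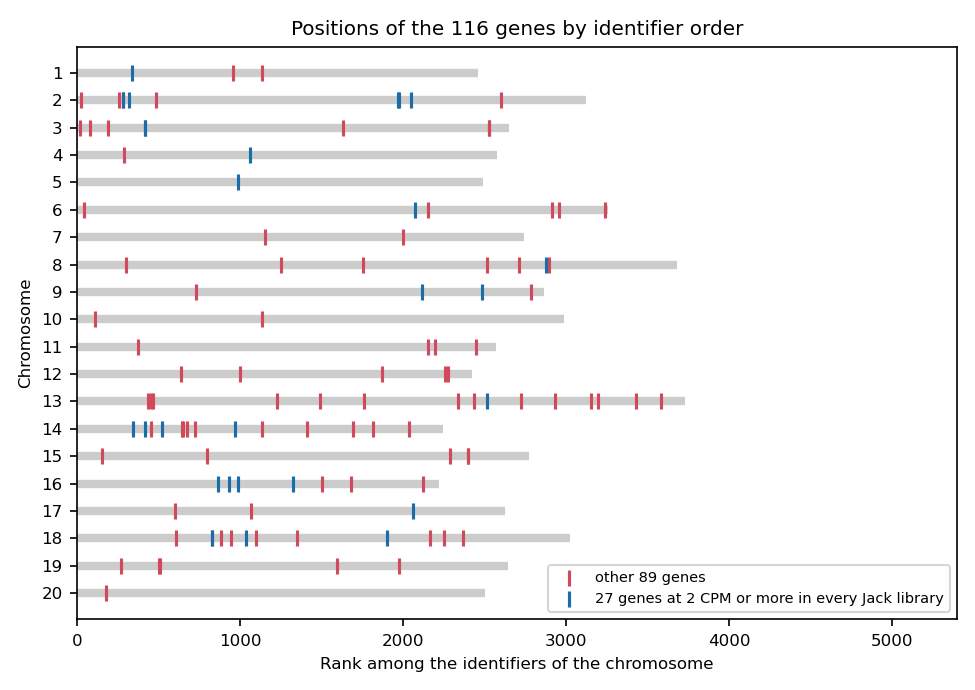
Position of the 116 genes by rank of the identifier (horizontal axis) on each of the 20 chromosomes (grey bars, as long as the number of identifiers), with the 27 genes at 2 CPM or more in every Jack library in blue and the other 89 in red. Both kinds lie on many chromosomes and no run is longer than a pair.

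The 4 pairs of adjacent identifiers made up 8 of the 116, and 12 had another listed gene within 5 identifiers; in the converse list 2 of 64 had such a neighbour, at either distance. In 2 of the pairs the members had a like profile over the Jack plants. Glyma.15G239600 measured 12.4, 0.614 and 25.2 CPM in NT and 3.45, 5.65 and 0.0728 CPM in T, and its neighbour Glyma.15G239700 measured 12.04, 1.23 and 26.5 CPM in NT and 6.28, 6.39 and 0.0728 CPM in T. In Mustang both were counted in NRPE1-RNAi T replicate 1 alone, at 0.852 and 1.11 CPM. Glyma.14G064500 measured 4.19, 0 and 40.4 CPM in NT and 1.38, 0.574 and 0 CPM in T, which follows the profile of Glyma.14G064600 beside it, with NT replicate 3 highest and T replicate 3 at 0. Reads shared by near-identical neighbours could have been counted for either gene.

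The other 2 pairs differed between their members. Glyma.03G041400 was even, at 5.51, 5.06 and 9.39 CPM in NT and 7.13, 5.16 and 7.20 CPM in T, with no Mustang count. Beside it, Glyma.03G041300 measured 4.12, 3.15 and 33.9 CPM in NT and 23.9, 26.2 and 2.47 CPM in T, with 18 Mustang counts. Glyma.02G028200, next to the abundant Glyma.02G028100, measured 0.155, 0.0767 and 0.481 CPM in NT and 1.07, 0.246 and 15.2 CPM in T, so that T replicate 3, low for so many genes of the list, was the highest library for this one.

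Many of the genes flanking the list were expressed in both cultivars or in neither. The 116 genes had 223 nearest neighbours outside the list, of which 38 had no count in any of the 30 libraries and 84 had a mean of at least 2 CPM in both cultivars. At least 1 neighbour reached 2 CPM in Mustang beside 77 of the 116, and both neighbours did so beside 18. In Jack, 93 of the neighbours (41.7%) had a mean of at least 2 CPM, against 47.5% of all identifiers. None (0) of the neighbours was at 2 CPM or more in Mustang and at 0.2 CPM or less in Jack. The similar converse rule held for only 64 of all 55589 genes, so this count of 0 says little about neighbours. The other counts have no share over all genes beside them and are a description.

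The contrast of Jack NT with Mustang NT was fitted by edgeR's quasi-likelihood method over 36186 genes, of which 54.7% were called at an adjusted p under 0.05. Of the 128 neighbours tested, 50 (39.1%) were called higher in Jack and 28 (21.9%) lower, against 28.5% and 26.2% of all tested genes, which include the list itself. With a change of at least 2-fold as well, 43 (33.6%) were higher and 13 (10.2%) lower, against 20.0% and 14.9%. The median log2 fold change of Jack over Mustang was 0.25 for the neighbours and −0.04 for all tested genes. Within 5 identifiers on either side, 226 of 679 tested genes (33.3%) were higher and 164 (24.2%) lower, so the shares lay closer to the background at that distance. This fit scaled the libraries by TMM (the trimmed mean of M values), which raised Jack NT over Mustang NT by 0.52 on the log2 scale against total counts. Under total counts, as used for CPM, the median log2 fold change was −0.26 for the neighbours and −0.55 for all tested genes, and 42 neighbours (32.8%) were called higher and 52 (40.6%) lower, against 18.1% and 47.4% of all. The split between higher and lower calls thus turned with the scaling, while the nearest neighbours' median lay above that of all genes under both. Under TMM, 11 of 31 nearest neighbours (35.5%) of the 27 genes at 2 CPM or more in every Jack library were higher, with a median of 0.33. Within 5 identifiers of these 27, it was 39 of 139 (28.1%), with a median of −0.07. Within 5 identifiers of the other listed genes, it was 189 of 544 (34.7%), with a median of 0.14. The neighbours were taken by position alone, and no test of their shares against the background was made.

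Beside the most abundant genes of the list, neighbours differed from case to case. Glyma.08G287600, next to Glyma.08G287500, measured 48.8 ± 7.81 CPM in Jack NT (SD, n = 3) and 53.3 ± 12.04 CPM in Mustang NT (SD, n = 12). It did not pass the edgeR test, whose log2 fold change of 0.40 ± 0.19 (SE; adjusted p = 0.0691) is on the TMM scale and so has the other sign than the CPM means. On the other side, Glyma.08G287400 was at 0.790 ± 0.579 CPM in Jack NT and had no count in the 12 Mustang NT libraries (edgeR adjusted p = 0.000120). A gene nearly absent from Mustang thus lay between a neighbour of similar mean level in both cultivars and another nearly absent from Mustang.

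Glyma.15G239500 extended the pair on chromosome 15. It measured 44.7, 18.3 and 74.9 CPM in Jack NT and 34.9, 48.0 and 3.20 CPM in Jack T, and 0.406 ± 0.749 CPM over Mustang NT (SD, n = 12), with a TMM-scaled log2 fold change of 7.53 ± 0.83 as its SE (adjusted p = 3.70e-08 by edgeR). Like the 2 listed genes beside it, it was highest in NT replicate 3 and lowest in T replicate 3 and NT replicate 2.

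Most of the other flanks described were weak or silent in both cultivars, except Glyma.14G052100. Beside Glyma.02G028100, Glyma.02G028000 was at 0.577 ± 0.372 CPM in Jack NT and 0.0508 ± 0.0827 CPM in Mustang NT (TMM-scaled log2 fold change 3.72 ± 0.79, SE; edgeR adjusted p = 0.000311). Beside Glyma.14G052000, Glyma.14G052100 was at 1.81 ± 0.522 CPM in Jack NT and 2.61 ± 3.30 CPM in Mustang NT and was not called (TMM-scaled log2 fold change 0.12 ± 0.58, SE; edgeR adjusted p = 0.870). Over all libraries it was at 2.03 CPM in Jack and 6.42 CPM in Mustang, while Glyma.14G051900 had 44 counts in Jack and 0 in Mustang. Both neighbours of Glyma.04G105900 had no count in any library, and neither neighbour of Glyma.18G103500 reached 0.1 CPM in the mean of either cultivar. These 2 abundant Jack genes therefore stood alone among flanking genes with few or no reads.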

How the data were processed

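The authors deposited a table of raw read counts per gene for each of the 30 libraries, whole numbers without normalisation for 55589 Glyma identifiers. Per the labels' protocols, TRI Reagent was used for the RNA and NEBNext kits for poly(A) selection and libraries, which ran on an Illumina HiSeq instrument. The submitters' processing notes name FastQC 0.11.5, STAR 2.5.3a and edgeR, without roles. Not given in the sources used here are a genome build, annotation, counting program or strand, so overlapping genes and near-identical copies carry that uncertainty.

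CPM were computed from the library totals. The 6 Jack libraries (T against NT), and all 30 libraries in a model of 6 groups (Jack NT against the mean of both Mustang NT groups), were fitted with edgeR 4.0.16 in R 4.3.3 (filterByExpr, TMM, quasi-likelihood test, Benjamini-Hochberg adjustment over all tested genes, called at an adjusted p under 0.05). DESeq2 1.42.0 was an alternative, with other scalings, filters, thresholds and each library left out. Folds from the fits are TMM-scaled, whereas printed CPM are not. The SE printed with an edgeR fold is the absolute log2 fold change divided by the square root of the test's F value. It is thus derived from the test and not estimated apart from it. The fits were checked on simulated counts. No libraries held identical counts. The siblings are taken as separate plants.

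The genes and lists were chosen with earlier results of these data known. Genes were named as the 6 highest Jack means, adjacent pairs, the 4 widest Jack ranges, the 2 highest Mustang values, the genes at each threshold, up to 4 called genes (0 were called), and the 3 highest genes off in Mustang NT and on in T; all others were named after their values were seen.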

Additional observations from a re-analysis of the deposited data

Results flagged for a closer look

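Of 30 sets of 6 values examined for a single far library (the sums over gene sets in each Mustang group, and named genes with at least 10 counts in a group), 5 stood out. Chance flags about 1 in 20 sets that were not chosen for their values, a rate that does not apply to these 5. The 116 genes, and the 89 among them, were chosen by their Mustang group means, and the 173 genes by their Mustang T values. Glyma.01G095500 and Glyma.12G063900 were named for a high single library. All 5 were NRPE1-RNAi T replicate 1, set against its 5 transgenic siblings. The 116 genes summed to 26.0 CPM in it and to 3.26 to 7.33 CPM in the others. The 89 genes that missed 2 CPM in some Jack library summed to 24 CPM against 2.62 to 5.44 CPM, and the 173 genes removed by the Mustang T groups summed to 663 CPM against 27.7 to 259 CPM. Glyma.01G095500 and Glyma.12G063900 each stood at 1.18 CPM in it and at 0 in the others. The 5 values come from overlapping genes of 1 library and are not independent.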

How the results depend on the processing

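The number of listed genes followed the limits: 284 with a Jack limit of 1 CPM, 50 with 5 CPM, 58 with a Mustang ceiling of 0.1 CPM, 266 with 0.5 CPM, 12 with no Mustang count allowed, 27 with 2 CPM in every Jack library, 286 by NT libraries alone and 165 with TMM scaling. Leaving out 1 library at a time gave 99 to 168. In Jack T against NT, 5 genes were called by edgeR, 554 by DESeq2, 10 without the count filter, 1 with total counts, 208 in a model of 30 libraries, 0 with a replicate block, and 0 to 54 with 1 library left out (54 without T replicate 3). Listed genes called were 5 by DESeq2, 2 in the model of 30 libraries and 0 otherwise. Same-numbered siblings did not deviate together (correlations of −0.36, −0.29 and −0.49), and differently numbered ones gave −0.37 to 0.49. With 3 plants per group such values cannot show whether the numbers pair plants. With the replicate block 0 genes and 0 listed genes were called. Neighbours called were 78 of the nearest, 390 within 5 identifiers and 71 to 75 with a Jack NT library left out. Listed genes adjacent to another numbered 14, not 8, with a ceiling of 0.5 CPM. Genes off in Mustang NT and on in T numbered 46, not 173, with a T ceiling of 1 CPM. Added after the data were seen, leaving out 1 Jack library at a time gave 27 to 39 genes at 2 CPM or more in every Jack library, and 18 to 43 at 0.2 CPM or less in at least 1. It gave 11 to 22 genes not overlapping and higher in T, and 6 to 33 lower. Of all tested genes, 9.10% to 18.9% then lay higher and 5.3% to 15.4% lower. The log2 fold changes of the 15 genes whose T and NT values did not overlap kept their sign under every alternative that gave a value. Their choice by non-overlapping values in the same libraries favoured this, so the kept sign is no support for a difference. With 12204408 to 13743064 counts per Jack library, values near 0.2 CPM rest on few counts per library.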
